A study of Mus musculus with 194 samples.

Results

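The time course of transcription in the amygdala (Amy) after a cocaine challenge was followed in 15 mice, the libraries that the labels place in the challenge experience and the amygdala. Of the 194 libraries of the series, 16 belong to it, and because 1 abstinent mouse was sequenced in 2 runs and its libraries were summed, they stand for 15 of the 166 samples. All mice were male C57BL/6OLAHSD mice that arrived at 6 to 7 weeks of age, were habituated with saline for 3 days and then received cocaine at 20 mg/kg by intraperitoneal injection on 5 daily occasions. After 21 days of abstinence, 3 mice were taken with no cocaine on that day (0 hr, abstinent) and 4 mice each were taken 1, 2 and 4 hr after a further dose of 20 mg/kg. The study asked which genes such a challenge induces in structures of the reward circuitry and when. All groups carry the earlier cocaine, and mice given saline at the challenge are not among the groups compared here, so the effects of cocaine and of injection and handling cannot be told apart.

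Neurons that receive strong input switch on immediate early genes within minutes, without new protein synthesis, through signalling from receptors and calcium to factors such as CREB and SRF that already sit on their promoters. The first products are mostly transcription factors of the FOS, JUN, EGR and NPAS families and feedback inhibitors such as the dual specificity phosphatases, and a later wave holds secreted factors, channels and enzymes. In the amygdala, which assigns emotional value to cues and contexts, drug-paired stimuli are known to engage these genes. Cocaine blocks the reuptake of dopamine, noradrenaline and serotonin, and also raises glucocorticoids, which act on genes of their own.

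Tissue was dissected from coronal slices of 400 µm, and RNA was sequenced from transcript 3′ ends with unique molecular identifiers, short random tags by which PCR duplicates are recognised and collapsed. The total count per mouse ran from 2390783 to 8911089 (median 3239644), and each time point drew 2 libraries from each of 2 sequencing runs, run0215 and run0006. All 10 markers of excitatory and all 10 of inhibitory amygdala neurons were expressed enough to be tested, whereas 5 of 6 cholinergic markers, Chat and Slc5a7 among them, were not. Levels are given as CPM, counts scaled to a common library size after TMM normalization. Markers of neighbouring tissue were present too, as Pmch, a hypothalamic neuropeptide, lay between 427 and 1071 CPM and Ttr, the defining gene of the choroid plexus, between 92.3 and 410 CPM. No marker list had a member called against 0 hr by edgeR or by DESeq2, but Ttr was called lower under 5 of the 30 alternatives at 1 hr and 6 at 4 hr, and the hemoglobin genes Hbb-bs and Hbb-bt were called higher at 1 hr in run0215 alone. Without a filter on low counts, Ttr was also called at 2 hr, and Ptgds, a mural and meningeal marker, at 1 hr. In bulk tissue, fewer cells of a type and less RNA per cell cannot be told apart.

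One abstinent mouse, 0 hr replicate 3, stood apart from the other 2 in ways that touch the results. Its summed level of choroid plexus markers was 633 CPM, against 257 to 364 CPM in the other 14 mice, and its levels of Fos, Fosb and Egr4 were the lowest of the 15 mice (10.6, 12.1 and 26.9 CPM, against 23.0 to 23.1, 23.8 to 23.9 and 47.4 to 52.3 CPM in the other abstinent mice). Calls against 0 hr are therefore given with and without this mouse. It was also the only abstinent mouse sequenced in run0006 alone, so the fit without it holds fewer abstinent reads from that run. Whether its dissection bears on those genes was not tested.

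A gene was called when edgeR's quasi-likelihood test, fitted over the 12288 genes that passed the filter with time and the share of reads from run0006 as terms, gave a p below 0.05 after Benjamini-Hochberg adjustment and the change exceeded 1.2-fold, the fold threshold of the study. At 1 hr, 13 genes were higher than in abstinent mice (0.106% of the genes tested) and 0 were lower. At 2 hr, 12 genes were higher (0.0977%) and 0 lower, and at 4 hr only Dio2 was higher (0.00814%) and 0 genes were lower. At an unadjusted p under 0.05, 179 genes were lower at 1 hr, 420 at 2 hr and 349 at 4 hr, and DESeq2 called 0 lower genes at each time. DESeq2 called 7 higher genes at 1 hr, all of them among the 13 and without Arc, Btg2, Egr2, Egr4, Fos and Npas4, 11 at 2 hr and 3 at 4 hr. The 24 genes that changed over time as a whole, by a test of the 3 time terms together (0.195%), include every gene called at 1 hr.

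The 13 genes higher at 1 hr included 6 immediate early transcription factors. Junb, Fos and Fosb encode subunits of the AP-1 factor, Npas4 a factor of active neurons, and Egr2 and Egr4 zinc finger factors, while Btg2 and Arid5a encode a transcriptional co-regulator and an RNA-binding protein. The others were Arc, a cytoskeletal protein of active synapses, Gadd45b, a stress-inducible protein linked to DNA demethylation, Arl4d, a small GTPase of the ARF family, Dusp1, a phosphatase that switches off MAP kinases, and Ppp1r3g, a subunit that directs protein phosphatase 1 to glycogen. All 13 lay higher in every 1 hr mouse than in every abstinent mouse, where 2.21% of all genes tested did so. The calls rest on the same values, so this is a description of them.

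**Figure D1:**
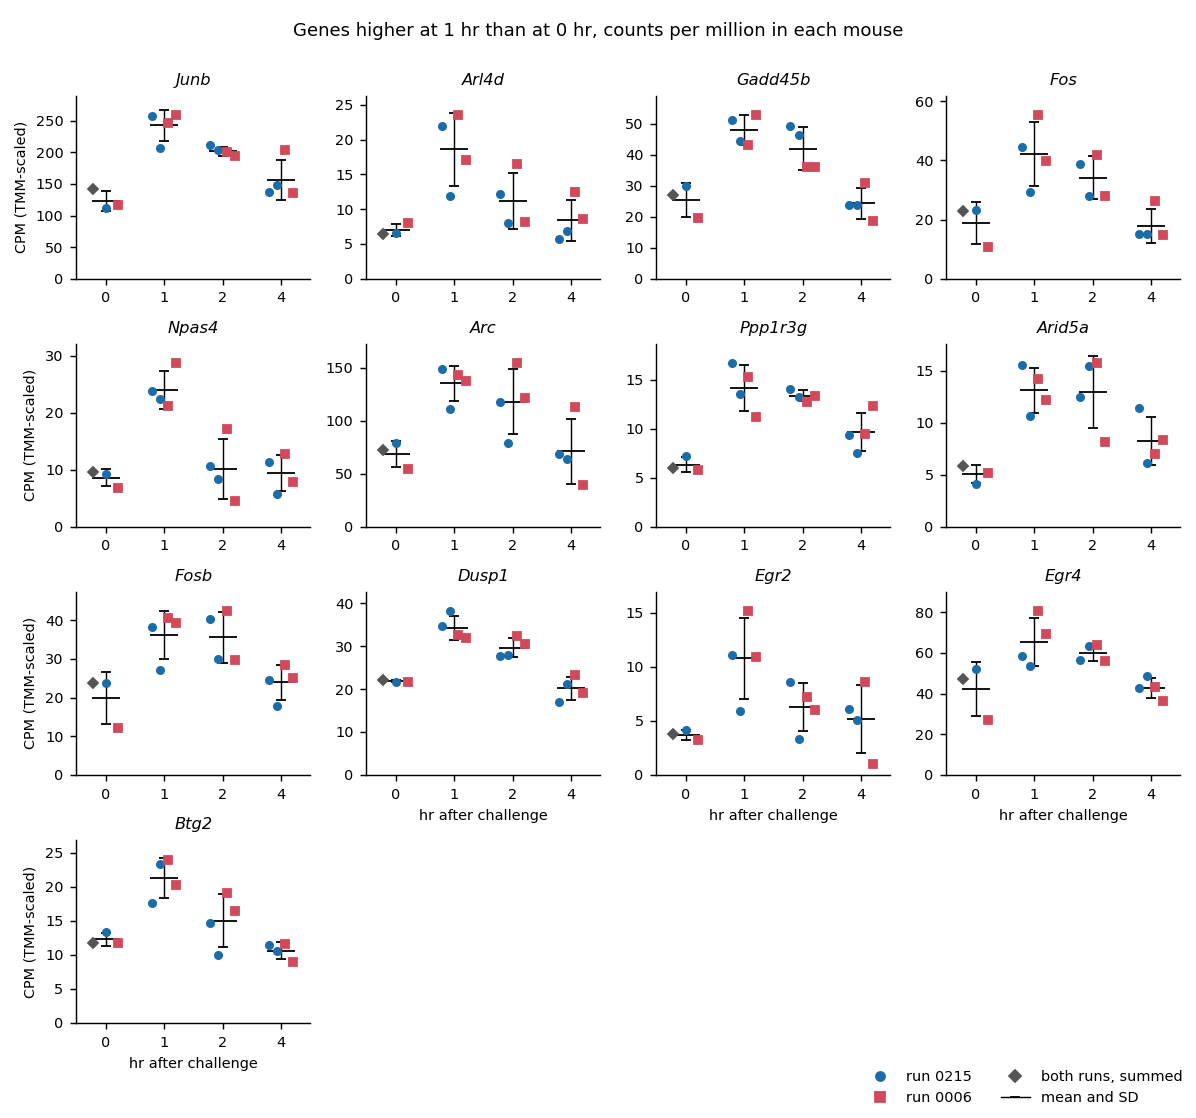
CPM after TMM scaling (y axis) at 0, 1, 2 and 4 hr after the challenge (x axis) for the 13 genes higher at 1 hr, with 1 point per mouse, its shape and color giving the sequencing run, and the group mean and SD in black. In every panel the 4 mice at 1 hr lie above the 3 abstinent mice, Junb, Gadd45b, Arc, Fosb, Ppp1r3g and Arid5a are called at 2 hr as well, and none of the 13 is called at 4 hr.

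Junb (chr8:84974484-84978718 on the minus strand, GENCODE annotation of GRCm38) had the smallest p. Its level was 142, 112 and 116 CPM in the abstinent mice and 258, 207, 247 and 259 CPM at 1 hr, a fold change of 1.95 (log2FC 0.97 ± 0.10 SE, adjusted p = 3.95e-08). At 2 hr it was 211, 204, 200 and 194 CPM, narrowly grouped and still above every abstinent mouse (log2FC 0.70 ± 0.10, adjusted p = 0.000236). At 4 hr 3 mice were at 135 to 148 CPM, beside the abstinent range, and the fourth was at 204 CPM (log2FC 0.34 ± 0.10, adjusted p = 0.42). Junb kept its calls at 1 and 2 hr without any single mouse, and its 1 hr rise was 0.79 in run0215 alone and 1.03 in run0006 alone on the log2 scale.

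Fos (chr12:85473890-85477273, plus strand), the partner of JUN proteins in AP-1, was at 23.0, 23.1 and 10.6 CPM at 0 hr and at 44.6, 29.2, 55.3 and 39.9 CPM at 1 hr. This 2.31-fold rise (log2FC 1.21 ± 0.20 SE, adjusted p = 0.000651) carried more spread than that of Junb in both groups. Without 0 hr replicate 3 the rise was 0.86 with an adjusted p of 0.0528, so the call depended on that mouse. At 2 hr the mice were at 38.8, 27.9, 41.8 and 27.9 CPM, above all abstinent mice but not called (log2FC 0.89, adjusted p = 0.0765), and at 4 hr they were back at 14.7 to 26.3 CPM. Fosb (chr7:19302696-19310051, minus strand) followed with less decay: 27.1 to 40.5 CPM at 1 hr and 29.8 to 42.3 CPM at 2 hr, against 12.1 to 23.9 CPM at 0 hr. Its log2FC was 0.89 ± 0.17 at 1 hr and 0.87 ± 0.18 at 2 hr (adjusted p = 0.00823 and 0.0209), and neither was called without 0 hr replicate 3 (0.59 and 0.57, adjusted p = 0.399 and 0.425). The 1 hr call was also lost without 1 hr replicate 1 or 3, and the 2 hr call without 2 hr replicate 1 or 3.

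Npas4 (chr19:4984355-4990316, minus strand) had the largest drop in log2FC from 1 to 2 hr of the 13. Its 4 values at 1 hr were 23.8, 22.4, 21.2 and 28.7 CPM, well above the 6.89 to 9.57 CPM of abstinent mice (2.75-fold, log2FC 1.46 ± 0.24 SE, adjusted p = 0.000651). By 2 hr they were 10.7, 8.34, 17.1 and 4.47 CPM, a range that spans the abstinent mice on both sides (log2FC 0.34 ± 0.26). Between 1 and 2 hr, 0 genes passed the test across all genes, with 546 at an unadjusted p under 0.05 and 0 called by DESeq2, and Npas4 over this hour had a log2FC of -1.12 with an adjusted p of 0.0562. This difference was called under 7 of 30 alternatives, among them the fit without 0 hr replicate 3 (adjusted p = 0.0364). The rise at 1 hr kept its call without each mouse in turn.

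Among the zinc finger factors of the EGR family, 2 of 4 were called at 1 hr, beside 13 of all 12288 genes. Egr2, at 3.23 to 4.13 CPM in abstinent mice, was at 11.1, 5.93, 15.1 and 10.9 CPM at 1 hr, the largest fold of the 13 in the reported fit (3.09-fold, log2FC 1.63 ± 0.34 SE, adjusted p = 0.0199). Its log2FC was 1.04 in run0215 alone, below those of Arl4d, Arid5a, Npas4 and Ppp1r3g there, and 2.04 in run0006 alone. Egr4 was at 47.4, 52.3 and 26.9 CPM at 0 hr and 53.4 to 80.4 CPM at 1 hr (log2FC 0.68 ± 0.14, adjusted p = 0.0199), and its log2FC was 0.17 in run0215 alone and 1.03 in run0006 alone. Both calls were lost without 0 hr replicate 3 (Egr2 1.5, adjusted p = 0.301, and Egr4 0.42, adjusted p = 0.531) and without 1 hr replicate 3. They were also lost without the run as a term, in run0215 alone and after thinning to the smallest total. That of Egr2 was lost without 0 hr replicate 1 or 1 hr replicate 1 as well. Egr1 and Egr3, which were also expressed, had a log2FC of 0.33 ± 0.14 and 0.14 ± 0.09 at 1 hr and were not called at any time by edgeR as reported or by DESeq2. Without a filter on low counts Egr1 was called at 1 hr. Differences between the members were not tested. Nab2, a co-repressor that binds EGR proteins and is itself one of their targets, was called at 2 hr, as given below.

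Arc (chr15:74669083-74672570, minus strand) doubled, from 72.3, 78.8 and 54.5 CPM to 149, 111, 143 and 137 CPM at 1 hr (log2FC 1.00 ± 0.17 SE, adjusted p = 0.00162). At 2 hr the mice spread from 78.8 to 154 CPM (log2FC 0.81 ± 0.17, adjusted p = 0.0346), and the lowest of them equalled the highest abstinent mouse to 3 digits and exceeded it only beyond them. Without 0 hr replicate 3, the adjusted p of Arc was 0.0994 at 1 hr and 0.428 at 2 hr. Its 2 hr call was also lost without 0 hr replicate 1, 1 hr replicate 2, 2 hr replicate 1 or 3, or 4 hr replicate 1. Gadd45b (chr10:80930073-80932204, plus strand) rose from 19.4 to 29.9 CPM at 0 hr to 43.0 to 52.7 CPM at 1 hr (1.89-fold, log2FC 0.92 ± 0.14, adjusted p = 0.000379) and was at 36 to 49.2 CPM at 2 hr (log2FC 0.72 ± 0.15, adjusted p = 0.0209). Its 1 hr call held without each mouse in turn, and its 2 hr call was lost without 0 hr replicate 3 (adjusted p = 0.267). The 2 hr call was also lost without 2 hr replicate 1, 2 or 3.

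Arl4d (chr11:101665541-101667832, plus strand) was low in abstinent mice, at 6.38, 6.54 and 7.97 CPM, and stood at 22, 11.9, 23.5 and 17.1 CPM at 1 hr (2.79-fold, log2FC 1.48 ± 0.23 SE, adjusted p = 0.000379). It was called under every setting tried and without every mouse. Dusp1 (annotated at chr17:26505590-26562128 on the minus strand) had the tightest abstinent values of the 13, 22.1, 21.7 and 21.7 CPM, and 31.8 to 38.1 CPM at 1 hr (log2FC 0.64 ± 0.13, adjusted p = 0.0199). Btg2 went from 11.7 to 13.4 CPM to 17.6 to 24 CPM (log2FC 0.82 ± 0.18, adjusted p = 0.0346), and neither it nor Dusp1 was called without 0 hr replicate 3 (adjusted p = 0.396 and 0.185), although their log2FC moved little (0.76 and 0.62). Dusp1 also lost its call without 0 hr replicate 1 or 2, or 1 hr replicate 1, 2 or 3. Btg2 also lost its call without 0 hr replicate 1 or 1 hr replicate 2 or 3, and kept it under 7 of 15 other settings.

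Arid5a and Ppp1r3g were as high at 2 hr as at 1 hr. Arid5a was at 4.13 to 5.83 CPM in abstinent mice, 10.6 to 15.5 CPM at 1 hr and 8.19 to 15.7 CPM at 2 hr (log2FC 1.35 ± 0.24 and 1.33 ± 0.25, adjusted p = 0.00204 and 0.0115). Ppp1r3g was at 5.96, 7.23 and 5.81 CPM at 0 hr, 16.7, 13.6, 15.3 and 11.2 CPM at 1 hr and 14.1, 13.3, 12.7 and 13.4 CPM at 2 hr (log2FC 1.21 ± 0.21 and 1.10 ± 0.22, adjusted p = 0.00162 and 0.0186). The 2 hr call of Ppp1r3g was lost without 0 hr replicate 3 (1.06, adjusted p = 0.143), and also without 0 hr replicate 1, 2 hr replicate 1 or 2 hr replicate 3. Both remained above every abstinent mouse at 4 hr, at 6.14 to 11.4 CPM and 7.58 to 12.3 CPM, with no call (adjusted p = 0.67 and 0.555). These levels rest on few reads per mouse, and both genes lost their 1 hr call when every mouse was thinned to the smallest total.

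Without 0 hr replicate 3, 8 genes were called at 1 hr, Ddit4 and Sgk1 newly among them, and 6 at 2 hr. Of the 13 genes, 6 then kept their 1 hr call (Arid5a, Arl4d, Gadd45b, Junb, Npas4 and Ppp1r3g), and 5 of the 12 kept their 2 hr call (Arid5a, Dio2, Junb, Stk40 and Tsc22d3). Without 1 hr replicate 3, the most deeply sequenced mouse, 8 genes were called at 1 hr as well. Just outside the threshold at 1 hr were Ddit4, an inhibitor of mTORC1 that is induced by stress and glucocorticoids (log2FC 0.53 ± 0.12, adjusted p = 0.0506), and Tiparp, an ADP-ribosyltransferase (0.93 ± 0.21, adjusted p = 0.0511).

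Promoter sequences were examined for the 1 hr genes because the cyclic AMP response element (CRE), the palindrome TGACGTCA bound by CREB, is known from several immediate early genes. RefSeq promoters of GRCm38.p6, from 250 bases before to 50 after the start, were available for 12 of the 13 genes, Arc being without an entry. The full CRE was present in 3 of the 12 (25%), Arl4d, Btg2 and Dusp1, and in 3.66% of the 9685 tested genes with a promoter. The shorter core TGACG, read on both strands and contained in every full CRE, was present in 10 of the 12 (83.3%), the exceptions being Arid5a and Gadd45b, and in 35.8% of all. Of the 12 genes called at 2 hr, 10 had a promoter entry, and the full CRE was in 1 of them (10%), that of Dio2, and the core in 6 (60%). These windows of 120 bases are printed 5′ to 3′ on the strand of the gene, with the full CRE (first 4) or the core (Fos and Junb) in capitals.

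Arl4d, chr11:101665471-101665590, plus strand: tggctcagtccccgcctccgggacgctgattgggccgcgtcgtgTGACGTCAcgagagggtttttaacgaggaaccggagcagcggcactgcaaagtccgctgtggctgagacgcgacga
Dusp1, chr17:26508532-26508651, minus strand: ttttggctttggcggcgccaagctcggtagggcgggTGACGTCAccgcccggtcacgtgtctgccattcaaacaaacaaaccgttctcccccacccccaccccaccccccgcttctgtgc
Btg2, chr1:134079238-134079357, minus strand: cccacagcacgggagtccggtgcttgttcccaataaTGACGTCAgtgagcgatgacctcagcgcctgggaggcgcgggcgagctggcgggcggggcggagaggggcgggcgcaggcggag
Dio2, chr12:90739050-90739169, minus strand: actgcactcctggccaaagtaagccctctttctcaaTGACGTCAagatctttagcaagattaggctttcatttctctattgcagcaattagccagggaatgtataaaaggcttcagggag
Fos, chr12:85473725-85473844, plus strand: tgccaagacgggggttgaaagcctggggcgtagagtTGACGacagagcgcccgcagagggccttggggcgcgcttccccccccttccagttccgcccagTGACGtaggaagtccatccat
Junb, chr8:84978771-84978890, minus strand: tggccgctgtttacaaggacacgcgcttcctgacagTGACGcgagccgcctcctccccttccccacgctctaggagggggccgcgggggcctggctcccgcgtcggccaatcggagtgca

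The CRE begins 26 bases before the start of Arl4d, 95 before that of Dio2, 143 before that of Dusp1 and 166 before that of Btg2, and Fos holds cores at 129 and 66 bases and Junb at 106. The AP-1 motif TGANTCA was in 0 of the 12 promoters and in 5.86% of all, and the EGR motif GCGTGGGCG in 0 of 12 and 1.4%. The TATA box letters TATAAA were in 3 of 12 (25%), Fos, Gadd45b and Junb, against 8.65% of all. A match is a description of the sequence, and these windows do not cover enhancers.

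At 2 hr, 6 of the 12 genes called were genes of the first hour: Junb, Arid5a, Ppp1r3g, Fosb, Gadd45b and Arc. Both comparisons share the abstinent mice, so this overlap too is a description. The other 6, Dio2, Stk40, Kcng1, Tsc22d3, Nab2 and Grik5, were higher in every 2 hr mouse than in every abstinent mouse, as were all 12, where 3.39% of all genes tested did so. Their fold changes ran from 1.29 for Grik5 to 1.75 for Dio2, and all 6 had a positive log2FC at 1 hr with no call. Without replicate 3 of that time point 2 genes were called in place of 12, and 7 each without its replicate 1 or without 0 hr replicate 2.

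Dio2 (chr12:90724552-90738438, minus strand) encodes the type 2 deiodinase, which converts thyroxine to the active hormone T3 and in brain is found mainly in glia. It was at 40.1, 42.3 and 41.3 CPM in abstinent mice, a spread of 1.13 CPM (SD, n = 3). At 1 hr it was at 47.4 to 66.8 CPM (log2FC 0.51 ± 0.12 SE, adjusted p = 0.118), at 2 hr at 72.7, 60.1, 86.7 and 63.7 CPM (0.81 ± 0.12, adjusted p = 0.000347) and at 4 hr at 64.8, 58.5, 79.5 and 76.5 CPM (0.78 ± 0.12, adjusted p = 0.00142). Every treated mouse thus lay above every abstinent mouse, and the levels at 2 and 4 hr overlapped. Both calls held without each mouse in turn, and in run0215 alone, with fewer mice, neither was called (log2FC 0.69 and 0.57).

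**Figure D2:**
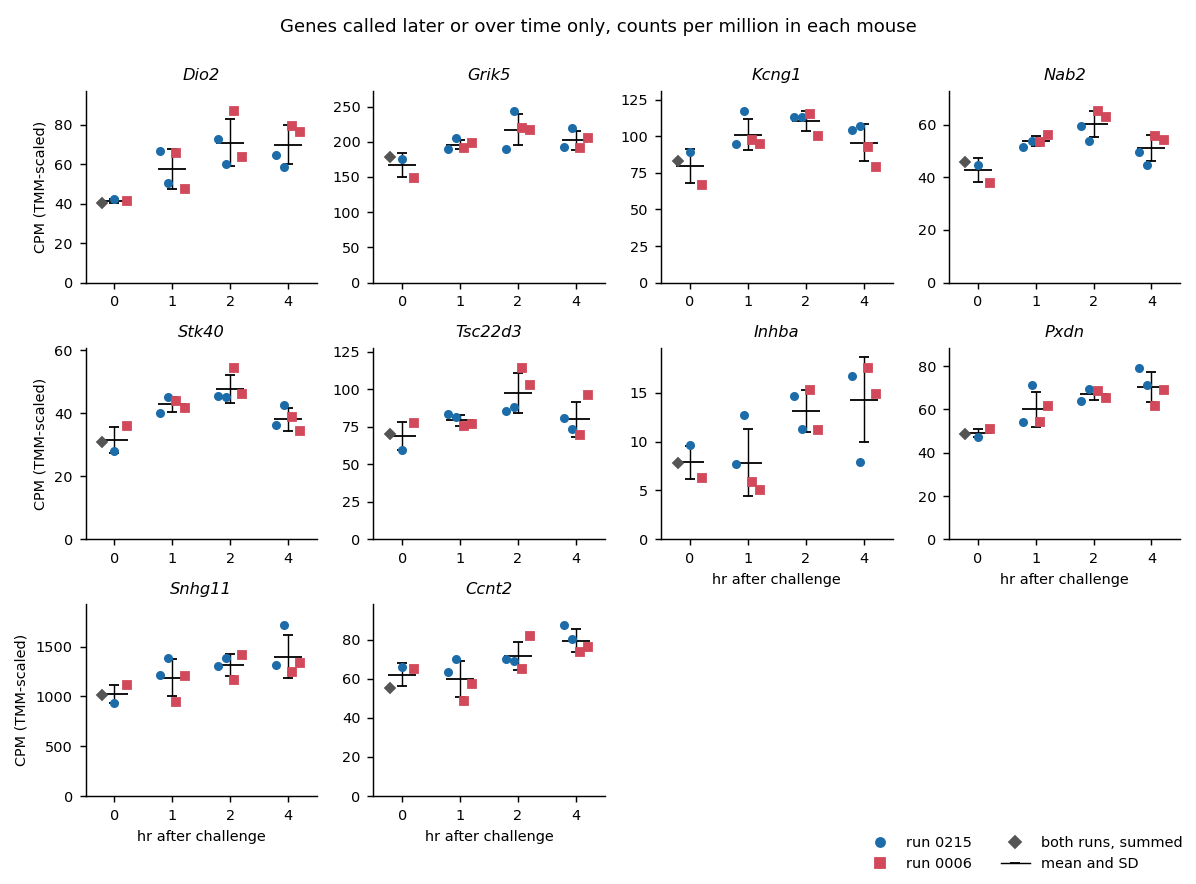
CPM after TMM scaling (y axis) at 0, 1, 2 and 4 hr (x axis) for the 6 genes called at 2 hr but not at 1 hr, the 3 called only in the test over all times (Inhba, Pxdn, Snhg11) and Ccnt2, with 1 point per mouse, run by shape and color, and mean and SD in black. Dio2 is the gene that is called at 4 hr, with mice at 58.5 to 79.5 CPM against 40.1 to 42.3 CPM in abstinent mice.

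Tsc22d3, which encodes the glucocorticoid-induced leucine zipper, was at 69.9, 59.2 and 77.3 CPM at 0 hr, 75.7 to 83.5 CPM at 1 hr and 85.2, 88.4, 114 and 103 CPM at 2 hr (log2FC 0.50 ± 0.10 SE, adjusted p = 0.0227), before returning to 69.5 to 96.1 CPM. Stk40, a kinase-like regulator, was at 27.9 to 36 CPM in abstinent mice and 45.0, 45.5, 46.2 and 54.3 CPM at 2 hr (0.60 ± 0.12, adjusted p = 0.0163). These 2 genes kept their calls without 0 hr replicate 3, and both lost them without 0 hr replicate 1, without 0 hr replicate 2, without 2 hr replicate 3 and with run as a factor of 3 levels. Nab2 was at 37.7 to 45.9 CPM at 0 hr and 53.8 to 65.0 CPM at 2 hr (0.50 ± 0.11, adjusted p = 0.0293), after 51.4 to 56.1 CPM at 1 hr. Kcng1, a modifier subunit of voltage-gated potassium channels, was at 66.5 to 89.2 CPM and 100 to 115 CPM (0.48 ± 0.09, adjusted p = 0.0163), and Grik5, a subunit of kainate receptors, at 148 to 178 CPM and 189 to 243 CPM (0.37 ± 0.08, adjusted p = 0.0346). In Nab2, Kcng1 and Grik5 the lowest abstinent mouse was replicate 3, and none of the 3 was called without it (log2FC 0.39, 0.40 and 0.30, adjusted p = 0.428, 0.253 and 0.428). All 3 also lost their calls without 2 hr replicate 3. Nab2 lost its call without 0 hr replicate 2 or 2 hr replicate 1 or 4 too. Grik5 did so without 0 hr replicate 2, 1 hr replicate 2 or 2 hr replicate 2 or 4.

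Of the genes called only in the test over all times, Inhba, the beta A subunit of activin and inhibin, was at 6.24 to 9.64 CPM in abstinent mice and 4.99 to 12.7 CPM at 1 hr, then at 11.2 to 15.3 CPM at 2 hr and 7.94 to 17.5 CPM at 4 hr (log2FC -0.09, 0.79 and 0.93, adjusted p over time = 0.0379). Pxdn, a peroxidase of the extracellular matrix, was at 47.5 to 51.0 CPM at 0 hr and 61.8 to 79.1 CPM at 4 hr (0.50 ± 0.10, adjusted p over time = 0.0456). The long noncoding RNA Snhg11, a host gene of small nucleolar RNAs, was at 935 to 1117 CPM at 0 hr and 1240 to 1717 CPM at 4 hr (0.44 ± 0.09, adjusted p over time = 0.0379). All 3 had their highest mean at 4 hr, and none passed edgeR's test of 4 hr against 0 hr (adjusted p = 0.256, 0.0713 and 0.0597). DESeq2 called Pxdn there (adjusted p = 0.0333), Pxdn was called under 3 of 30 alternatives in all, and Snhg11 under 10, among them the fit without 0 hr replicate 3 (0.55, adjusted p = 0.00785). At 4 hr, every mouse was above every abstinent mouse in 2.74% of all genes tested.

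**Figure D3:**
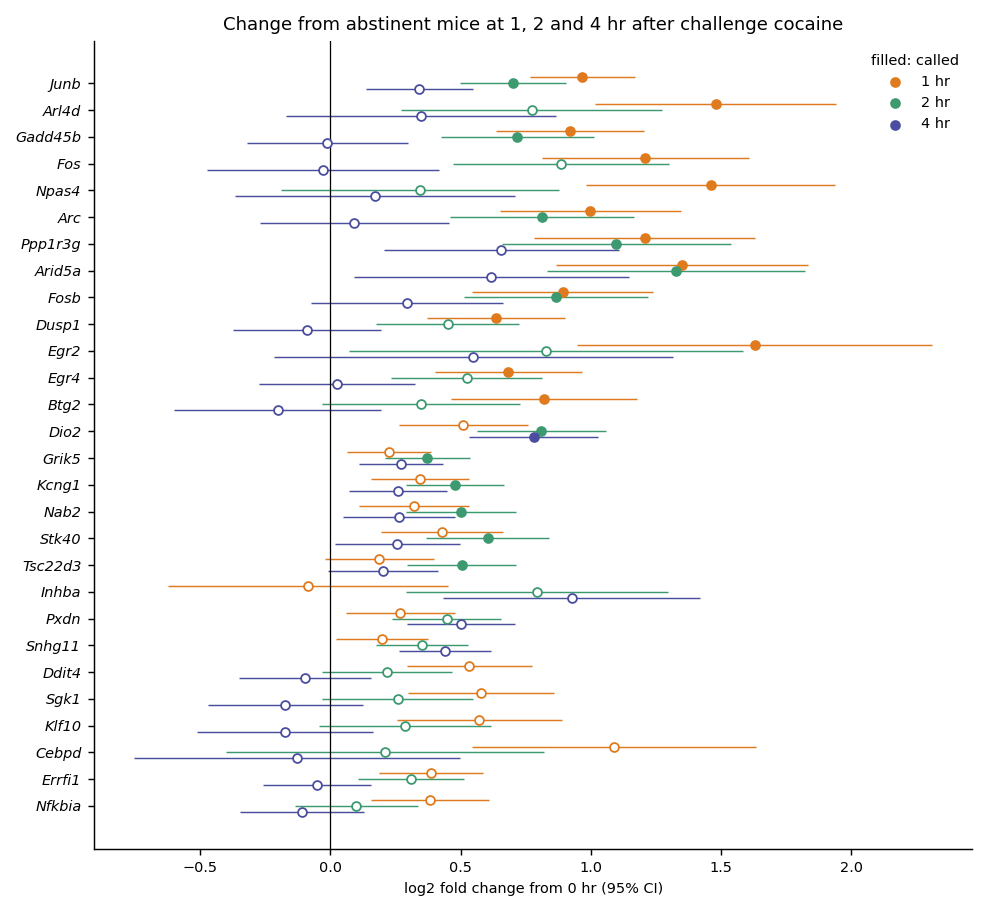
Log2 fold change from abstinent mice (x axis, with 95% confidence interval) at 1, 2 and 4 hr for 28 genes (y axis), filled where called and open where not. The early genes at the top run from right to left with time, Dio2 is filled at 2 and 4 hr, and the 6 genes at the bottom, which are called lower at 4 hr than at 1 hr, are open at every time.

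The later time points were also compared with each other, which leaves the abstinent levels out of the difference. From 1 to 4 hr, 15 genes fell (0.122% of those tested) and Ccnt2, a cyclin of the elongation factor P-TEFb, was higher (0.00814%). Of the 15, 9 were genes called higher at 1 hr: Gadd45b, Junb, Fos, Btg2, Npas4, Dusp1, Arc, Arl4d and Egr4. Both comparisons share the 1 hr mice, so genes high in those mice tend to be called in both, and this overlap is a description. The other 6 had not been called against 0 hr: Sgk1, a kinase induced by glucocorticoids, Ddit4, Klf10 and Cebpd, both transcription factors, Errfi1, a feedback inhibitor of the EGF receptor, and Nfkbia, the inhibitor of NF-κB. In 12 of the 15, all but Arc, Arl4d and Sgk1, every 4 hr mouse lay below every 1 hr mouse, where 1.28% of all genes tested did so. DESeq2 called 7 of the 16 (Arl4d, Btg2, Ddit4, Dusp1, Errfi1, Gadd45b and Junb), and 7 genes were called without 1 hr replicate 3.

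The largest falls, none of them called by DESeq2, were those of Npas4 (-1.29 ± 0.22 on the log2 scale, adjusted p = 0.002), Fos (-1.24 ± 0.19, adjusted p = 0.000243) and Cebpd (-1.22 ± 0.26, adjusted p = 0.033). Cebpd was at 15.5, 6.78, 14.2 and 7.17 CPM at 1 hr and 4.45 to 5.43 CPM at 4 hr, and lost its call when any of 6 mice was left out. Sgk1 was at 95.9, 61.4, 114 and 81.1 CPM at 1 hr and 62.0, 35.7, 53.2 and 65.2 CPM at 4 hr (-0.75 ± 0.13, adjusted p = 0.00239). In abstinent mice it was at 52.6, 48.5 and 81.6 CPM, so that its 4 hr level sat within their range apart from 1 lower mouse. Ddit4 was at 71.6 to 92.4 CPM and then at 48.4 to 57.8 CPM (-0.63 ± 0.11, adjusted p = 0.00254).

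Errfi1 went from 61.9 to 65.8 CPM at 1 hr to 38.3 to 52.7 CPM at 4 hr (-0.44 ± 0.09, adjusted p = 0.033) and Nfkbia from 48.3 to 58.5 CPM to 36.4 to 46.1 CPM (-0.49 ± 0.11, adjusted p = 0.0384). Klf10 fell from 37.7 to 59.2 CPM to 22 to 36.8 CPM (-0.75 ± 0.15, adjusted p = 0.0148). At 4 hr each of the 3 overlapped with the abstinent mice. Ccnt2 was at 48.5 to 69.9 CPM at 1 hr and 73.9 to 87.6 CPM at 4 hr (0.44 ± 0.10, adjusted p = 0.0484), a call that held in 5 of the 15 fits that left out 1 mouse. From 2 to 4 hr, 0 genes passed the test, with 784 at an unadjusted p under 0.05 and 1 called by DESeq2.

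Among 45 tested early transcription factors of a list of 50, 8 were called higher at 1 hr and 4 at 2 hr (Fosb, Junb, Nab2 and Arid5a), 0 at 4 hr, and 7 were lower at 4 hr than at 1 hr, where 0.106%, 0.0977%, 0.00814% and 0.122% of all genes tested were called. The count was 3 at 1 hr (Arid5a, Junb and Npas4) and 2 at 2 hr (Arid5a and Junb) without 0 hr replicate 3, and without 1 hr replicate 3 it was 4 at 1 hr and 4 between 4 and 1 hr. DESeq2 called 3 at 1 hr (Arid5a, Fosb and Junb) and 2 lower at 4 hr than at 1 hr (Btg2 and Junb). This list, like those below, was chosen with earlier results of these data known, so its counts describe it and do not test it. The median log2FC of the list was 0.33, 0.23 and 0.03 at 1, 2 and 4 hr, where the median over all genes tested was 0.00 at each time, and 38 of the 45 were positive at 1 hr, as were 6073 of all 12288 genes. Members that were not called at any time by edgeR as reported or by DESeq2 include Jun (0.39 ± 0.11 at 1 hr, edgeR adjusted p = 0.254) and Nr4a1 (0.45 ± 0.14, adjusted p = 0.493). Nr4a1 was called at 1 hr without a filter on low counts. Between 4 and 1 hr it was called there too, and without 4 hr replicate 3. The summed level of the list was 2349 to 2550 CPM at 0 hr, 2697 to 2984 CPM at 1 hr, 2640 to 2926 CPM at 2 hr and 2317 to 2765 CPM at 4 hr. At 1 and 2 hr it did not overlap with the abstinent mice, and neither did the sum of the clock genes, a list with no called member, which was 1256 to 1285 CPM at 0 hr, 1289 to 1367 CPM at 1 hr, 1291 to 1408 CPM at 2 hr and 1312 to 1391 CPM at 4 hr.

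In a list of synaptic and secreted effectors, 48 of 52 genes were tested, and 3 were called higher at 1 hr (Arc, Arl4d and Gadd45b), 5 at 2 hr (Arc, Kcng1, Gadd45b, Stk40 and Dio2) and 1 at 4 hr (Dio2), beside 13, 12 and 1 of all 12288 genes. These counts were 2, 2 and 1 without 0 hr replicate 3. This list too was chosen with earlier results of these data known. Its name is loose, as Gadd45b, Arl4d, Stk40 and Dio2 were described above as neither synaptic nor secreted proteins. The counts therefore describe the list and are no test of synaptic or secreted genes. The list had a median log2FC of 0.18, 0.16 and 0.09. Several well known plasticity genes in it gave no call: Bdnf was at 49.3 to 67.1 CPM at 0 hr and 53.8 to 61.4 CPM at 1 hr (log2FC -0.02 ± 0.12), Nptx2 at 43.3 to 80.2 and 57.3 to 71.4 CPM (0.03 ± 0.12), and Homer1 at 213 to 262 and 231 to 263 CPM (0.12 ± 0.11). Of 18 tested phosphatases and feedback inhibitors of MAP kinase signalling, Dusp1 was called at 1 hr, though not without 0 hr replicate 3, and the median was 0.06. Between 4 and 1 hr, 2 of these 18 (Dusp1 and Errfi1) and 3 of the 48 effectors (Arc, Arl4d and Gadd45b) were lower, beside 15 of all 12288 genes, and without 1 hr replicate 3 these were 1 (Dusp1) and 2 (Arc and Gadd45b). Dusp6, a phosphatase specific for ERK, had a log2FC of -0.03 ± 0.12.

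Genes that respond to glucocorticoids and stress were called in 1 of 30 at 1 hr (Dusp1), 1 at 2 hr (Tsc22d3) and 0 at 4 hr, beside 13, 12 and 1 of all 12288 genes. Between 4 and 1 hr, 15 of all genes were lower, and 6 of the 30 were lower at 4 hr than at 1 hr (Sgk1, Ddit4, Errfi1, Nfkbia, Cebpd and Dusp1), of which DESeq2 called 3 (Ddit4, Dusp1 and Errfi1) and 1 was called without 1 hr replicate 3 (Dusp1). Without 0 hr replicate 3, the members called at 1 hr were Ddit4 and Sgk1 in place of Dusp1. The list had a median log2FC of 0.16, 0.21 and -0.01, and 27 of its 30 genes were positive at 2 hr, as were 6218 of all 12288. Per1, a clock gene that glucocorticoids and CREB also induce, was at 53.7 to 63.7 CPM at 0 hr and 71.1 to 86.7 CPM at 1 hr (0.37 ± 0.09, adjusted p = 0.154), and Fkbp5, which buffers the glucocorticoid receptor, was at 24.8 to 29.3 CPM and, at 2 hr, 30.5 to 45.4 CPM (0.43 ± 0.13, adjusted p = 0.424).

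The other pathways had 0 members called against 0 hr by edgeR as reported or by DESeq2, while single alternatives called neuropeptides: Gal and Sst at 1 hr in run0215 alone, and Gal at 4 hr in run0006 alone, without 4 hr replicate 2 and, with Penk, without a filter on low counts. The 21 clock genes had medians of 0.07, 0.06 and 0.04, with 1, 2 and 4 members at an unadjusted p under 0.05 among those higher, as were 304, 485 and 475 of all 12288 genes. Per2 at 4 hr was at 25.1 to 33.1 CPM against 18.6 to 23.0 CPM (0.53 ± 0.17, adjusted p = 0.481). Among 20 cytosolic heat shock genes, 3 were positive at 1 hr and at 2 hr, where 6073 and 6218 of all 12288 were, with medians of -0.11 and -0.13 and 3 and 5 members at an unadjusted p under 0.05 among those lower, as were 179 and 420 of all genes. Hspa1a, an inducible HSP70, was at 24.1 to 35.5 CPM at 0 hr and 17.4 to 22.9 CPM at 1 hr (-0.56 ± 0.18, adjusted p = 0.671), and its near-identical neighbour Hspa1b may have taken some of its reads. The 25 tested chaperones of the endoplasmic reticulum had medians of -0.06, -0.06 and -0.03. Of 24 neuropeptides, Gal, galanin, moved farthest at 4 hr, with 13.8 to 28.5 CPM against 31 to 39.7 CPM in abstinent mice (-0.83 ± 0.20, adjusted p = 0.212), and Crh, the stress peptide of the central amygdala, had a log2FC of 0.09 ± 0.21 at 1 hr. In 24 tested receptors for dopamine, opioids, serotonin and glutamate the medians were 0.05, 0.01 and -0.01. This list holds no kainate receptor subunit, so Grik5, called at 2 hr, lies outside it.

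**Figure D4:**
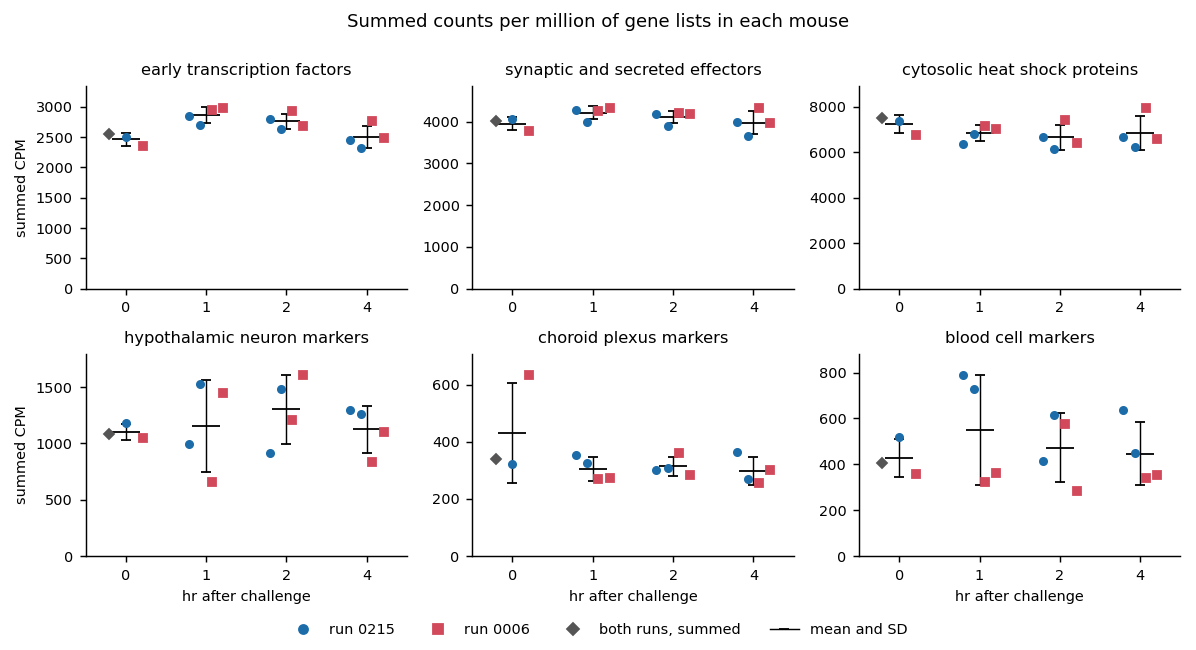
Summed CPM of 6 gene lists (y axis) in each mouse at 0, 1, 2 and 4 hr (x axis), with run by shape and color and mean and SD in black. Early transcription factors at 1 hr (2697 to 2984 CPM) lie above the abstinent mice (2349 to 2550 CPM), choroid plexus markers are highest in 1 abstinent mouse (633 CPM), and hypothalamic and blood cell markers vary between mice of each time point.

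Marker lists of other cell types were set beside these results. Ttr had a log2FC of -0.82 at 1 hr and -0.95 ± 0.22 at 4 hr (adjusted p = 0.254 and 0.212). It was called at both times with run as a factor of 3 levels, in run0006 alone, without a filter on low counts and without 0 hr replicate 1 or 2 (4 hr log2FC -1.22 and -1.27), and at 4 hr without 4 hr replicate 1. Without 0 hr replicate 3, the mouse with the highest sum of these markers, its log2FC was -0.08 at 1 hr and -0.20 at 4 hr. In run0215 alone the log2FC of Ttr was 0.25 at 1 hr and -0.04 at 4 hr, against -1.48 and -1.42 in run0006 alone. All 5 tested choroid plexus markers were negative at 2 and 4 hr, with summed levels of 322 to 633 CPM at 0 hr, 270 to 355 CPM at 1 hr, 285 to 362 CPM at 2 hr and 257 to 364 CPM at 4 hr. Hypothalamic markers summed to 1046 to 1181 CPM at 0 hr and 658 to 1525 CPM at 1 hr, a range wider than that of the abstinent mice on both sides. Blood cell markers were at 358 to 521 CPM and 324 to 788 CPM at 0 and 1 hr. Markers of striatal projection neurons had a median log2FC of 0.07, 0.11 and 0.11, with 11, 12 and 10 of 14 positive. Hippocampal neuron markers summed to 488 to 547 CPM at 0 hr, 515 to 591 CPM at 1 hr, 550 to 619 CPM at 2 hr and 575 to 641 CPM at 4 hr, above all abstinent mice at the last 2 times. Of the 10 markers of inhibitory amygdala neurons, 1 was positive at 1 hr (median -0.11, sums of 1631 to 1680 CPM at 0 hr and 1375 to 1700 CPM at 1 hr), and of the 10 of oligodendrocytes likewise 1 (median -0.12, sums of 5170 to 5649 CPM and 4873 to 5419 CPM). Apart from the hippocampal list, the sums of every marker list overlapped with those of the abstinent mice at each time. The part of these lists in the called changes was not tested.

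To ask whether the first hour differed with the history of cocaine, the 1 hr change was compared with that of acute cocaine, given to naive mice, and of repeated cocaine, the fifth daily dose, in a model of 31 Amy mice. Those experiences had 2 mice per time point each, and their libraries came from another run, so effects of run and of experience on their levels cannot be told apart, although each 1 hr change is taken within its own experience. By edgeR, 0 genes differed in their 1 hr change between challenge and acute cocaine (410 at an unadjusted p under 0.05, 0 by DESeq2) and 0 between challenge and repeated cocaine (562, and 0 by DESeq2). Of the 13 genes, 12 were also positive after acute cocaine, and 6 were called there (Arc, Btg2, Egr4, Fos, Gadd45b and Junb, where 0.0543% of all genes were). After repeated cocaine all 13 were positive and 3 were called (Arc, Fos and Junb, where 0.0543% of all genes were).

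The difference was small for Junb, whose 1 hr change was 0.15 lower after challenge than after acute cocaine (difference -0.15, 95% interval -0.51 to 0.22), and for Gadd45b (-0.02, interval -0.51 to 0.47). It was wider for Fos (-0.38, interval -1.20 to 0.44). Of the 13, Ppp1r3g had the largest difference from acute cocaine: it had a log2FC of -0.33 after acute cocaine (interval -0.90 to 0.24) and 0.24 after repeated cocaine (-0.32 to 0.80), against 1.21 after challenge. The differences, 1.54 (interval 0.81 to 2.27, edgeR adjusted p = 0.832) and 0.97 (0.25 to 1.69, adjusted p = 0.997), did not pass the correction over all genes. Npas4 was 1.00 higher after challenge than after acute cocaine (interval 0.13 to 1.86, adjusted p = 1.00). Dio2 was called at 2 hr after repeated cocaine too (log2FC 1.00, interval 0.61 to 1.38, adjusted p = 0.0176), and at 4 hr it had a log2FC of 0.19 after acute and 0.59 after repeated cocaine, neither called.

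**Figure D5:**
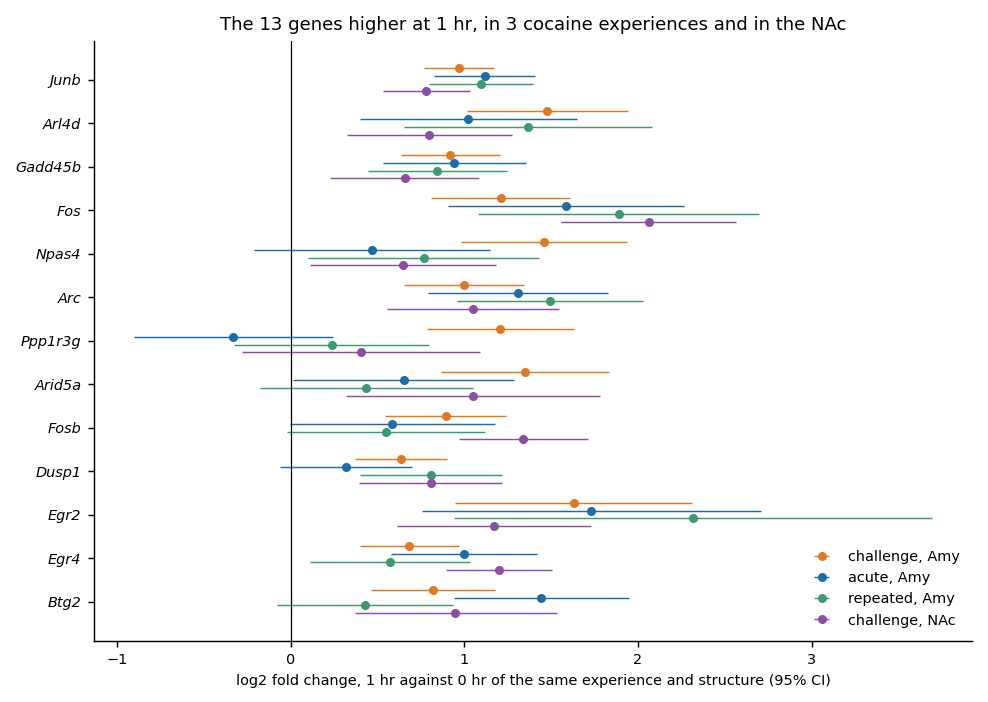
Log2 fold change at 1 hr against 0 hr of the same experience and structure (x axis, with 95% confidence interval) for the 13 genes (y axis) after challenge, acute and repeated cocaine in the Amy and after challenge in the nucleus accumbens (NAc). Ppp1r3g, at 1.21 after challenge in the Amy, has intervals that include 0 in the other 3.

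The same challenge mice were also sequenced from the NAc, the ventral part of the striatum, and 14 of them had both structures, as matched by the experiment and the running number in the sample descriptions, which is taken to be that of the animal. With the mouse as a block, and also without it, 0 genes differed in their 1 hr change between the Amy and the NAc (441 at an unadjusted p under 0.05, 1 by DESeq2). Abstinent mice with both structures numbered 2. Without Amy replicate 3, 11 genes differed, but that fit has 1 abstinent mouse, which is assumed to vary like the mice of the other time points. All 13 genes were positive in the NAc and 4 were called there (Egr4, Fos, Fosb and Junb, where 0.0884% of all genes were). Fos rose by 2.06 in the NAc on the log2 scale (interval 1.56 to 2.57), and the Amy minus NAc difference was -0.75 (-1.31 to -0.19, adjusted p = 0.999), while Npas4 (0.82, 0.09 to 1.56, adjusted p = 0.999) and Arl4d (0.69, 0.06 to 1.32, adjusted p = 0.999) lay to the other side. The difference for Junb was 0.17 (-0.18 to 0.51) and for Arc 0.05 (-0.42 to 0.53).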

How the data were processed

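Amy tissue of 15 mice was profiled by 3′-RNA-seq. The deposited values are raw counts per gene. To make them, the authors collapsed PCR duplicates by UMI, trimmed polyA tails, mapped the reads by STAR (GRCm38) and tallied them by HTSeq (versions not given in the sources used here). The table holds 19363 genes (197 with no count) in 194 libraries, and both libraries of the mouse sequenced in 2 runs were summed. Genes were filtered with filterByExpr, scaled by TMM and tested by the quasi-likelihood F test of edgeR 4.0.16 (R 4.3.3), with time and the share of reads from run0006 as terms and Benjamini-Hochberg adjustment across all genes that passed the filter. Intervals are 95% confidence intervals. The procedure was first tested on simulated data. DESeq2 1.42.0, other scaling, filters, run terms and thinning, single runs, a stricter fold change, a replicate block and leaving out each mouse were tried as alternatives. Gene positions come from GENCODE M21 and promoters from RefSeq (GRCm38.p6), and tables and plots were made in Python 3.11.15 with pandas 2.3.3, numpy 2.4.6 and matplotlib 3.10.9.

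The groups, the gene lists and the core genes were chosen with earlier results of these data known. Named were, for each contrast with 0 hr, up to 15 higher and 10 lower called genes by adjusted p, every called member of a list, up to 4 members per list with the smallest p, up to 8 called genes per direction between later time points, up to 5 for the differences between experiences or structures, and 28 core genes. Inhba, Pxdn and Snhg11, from the test over all times, were named after their values were seen where they fall outside this rule, as was any gene past the first 8 between 4 and 1 hr. Mice of a group are separate animals.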

Additional observations from a re-analysis of the deposited data

Results flagged for a closer look

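Of 192 groups of 4 mice examined (the called genes, the core genes, list sums and totals at each time point), 16 held a mouse far from the other 3 by Dixon's criterion, which chance alone flags in about 1 of 20 groups. Other named genes, such as Ttr, Inhba and Gal, were not examined in this way. At 4 hr, replicate 3 stood above the others in Fos (26.3 CPM against 14.7 to 15.2), Klf10 (36.8 against 22 to 24.1), Dusp6 (60.8 against 40.4 to 42.4) and the summed chaperones of the endoplasmic reticulum (3763 against 3104 to 3171 CPM), and below them in summed oligodendrocyte markers (4783 against 5428 to 5475 CPM). At 1 hr, replicate 2 was low in Fosb (27.1 CPM against 38.4 to 40.5) and Jun (66.1 against 84.2 to 86) and high in Kcng1 (117 against 94.5 to 97.8), and replicate 4 was high in summed chaperones of the endoplasmic reticulum (3211 against 3160 to 3166 CPM). At 2 hr, replicate 4 was low in Kcng1 (100 CPM against 113 to 115), replicate 3 high in Stk40 (54.3 against 45 to 46.2) and in summed astrocyte markers (5110 against 4363 to 4485 CPM), replicate 2 low in Dusp6 (35.5 against 41.6 to 42.8) and in the summed effectors (3900 against 4181 to 4205 CPM), and replicate 1 low in Lhx8, the 1 cholinergic marker tested (1.22 against 3.72 to 4.02 CPM). The total of 1 hr replicate 3 was 8911089 counts, against 2390783 to 3239644 in the other mice of that time point.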

How the results depend on the processing

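Of 329 counts of called genes under alternatives, 254 stayed within 1.5 times the reported count, and of 1770 values of single genes, 1482 kept their direction and side of the threshold, 239 lost and 29 gained a call. The order of the counts below is higher at 1, 2 and 4 hr (reported 13, 12 and 1), changed over time (24) and different between 4 and 1 hr (16). DESeq2 gave 7, 11, 3, 17 and 7, and it called 1 gene between 4 and 2 hr and 1 between the Amy and the NAc. Without a filter on low counts they were 30, 23, 7, 69 and 35, with 3 genes lower at each time, 3 different between 2 and 1 hr and 8 between 4 and 2 hr. Without the run as a term they were 10, 5, 1, 12 and 8. With run as a factor of 3 levels they were 11, 13, 2, 19 and 17, with 1, 3 and 1 genes lower at 1, 2 and 4 hr. Run0215 alone gave 8, 3, 1, 13 and 9, with 2 genes lower at 1 hr, 1 different between 2 and 1 hr and 4 between 4 and 2 hr. Run0006 alone gave 11, 2, 1, 18 and 5, with 2 genes lower at 1 hr, 2 lower at 4 hr and 1 different between 2 and 1 hr. Thinning all mice to the smallest total gave 7, 4, 1, 14 and 13, with 1 gene different between 4 and 2 hr. Thinning the largest library to 50% gave 2 genes higher at 4 hr, as did the use of only the run0215 library of the mouse sequenced in both runs, and the use of only its run0006 library gave 2 genes different between 2 and 1 hr. The newer dispersion estimate of edgeR, an alternative chosen after seeing the data, gave 16, 12, 1, 30 and 21. The runs alone hold fewer mice and thinning leaves fewer reads, and the cause of these shifts was not tested.

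The replicate number as a block gave 14, 12, 1, 25 and 13 genes, and 2 different between 2 and 1 hr (Hes5 and Npas4). It lost Btg2 at 1 hr, Nab2 and Tsc22d3 at 2 hr and Ccnt2, Cebpd and Nfkbia between 4 and 1 hr, and gained Ddit4 and Dio2 at 1 hr and Fos and Pcdh1 at 2 hr. The labels do not say that mice of the same number are paired. Residuals of same-number mice, after the time and run terms, correlated from -0.179 to 0.0527. Of 15 mice, 0 correlated best with their own number. Same-number mice mostly share a run, and fitting time and run to few mice lowers such correlations. These values therefore cannot show whether mice were paired.

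Leaving out each mouse in turn gave 8 to 19 genes higher at 1 hr, 2 to 14 at 2 hr and 1 to 3 at 4 hr, 0 to 1, 0 to 3 and 0 to 1 lower, 12 to 26 over time (lowest without 1 hr replicate 3, then 15 without 1 hr replicate 1), 0 to 2 between 2 and 1 hr, 7 to 18 between 4 and 1 hr, and 0 to 4 between 4 and 2 hr, and leaving out the 6 mice of 0 and 1 hr with both structures gave 0 to 11 between the Amy and the NAc. In the time course, 16 of 42 called changes kept their call without every mouse in turn. The 1 hr change of the marker gene Ttr turned sign in run0215 alone (0.245) and that of Hbb-bs in run0006 alone (-0.0818), both uncalled. Among the called and core genes, the 1 hr change turned sign, always uncalled, in 4 genes. For Bdnf (reported -0.02) it was 0.0304 with run as a factor of 3 levels, 0.0297 with only the run0006 library of the mouse sequenced in both runs, 0.164 in run0006 alone, 0.13 after thinning to the smallest total, 0.01375 with the replicate block, and -0.136 to 0.0535 with 1 mouse left out. For Crh (reported 0.09) it was -0.101 with 3 run levels, -0.207 after thinning and -0.0989 to 0.331 with 1 mouse left out. For Dusp6 (reported -0.03) it was 0.05168 with 3 run levels, 0.0143 with only the run0215 library, 0.0489 in run0215 alone and -0.139 to 0.0536 with 1 mouse left out. For Nptx2 (reported 0.03) it was -0.04862 with only the run0006 library, -0.0663 in run0215 alone and -0.168 to 0.154 with 1 mouse left out.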
